A study of Oryctolagus cuniculus with 24 samples.

Results

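The results below concern OGN (osteoglycin, also called mimecan), OMD (osteomodulin), ASPN (asporin) and ECM2 (extracellular matrix protein 2), which lie next to each other on rabbit chromosome 1. They were taken by gene name from the count table, which lists each of the 4 genes once among 23428 genes. All 4 passed the filter on low counts, as did 13308 genes in all.

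Keratocytes, which reside in the stroma of the cornea and make its matrix, were taken from rabbits as primary cells, plated at the first passage on collagen-coated glass and cultured for 6 days. Their RNA was sequenced in bulk. There were 8 libraries in each of 3 culture conditions. In the TGF-β1 condition, which the labels call myofibroblast, serum-free medium carried 5 ng/mL TGF-β1 from day 1. In the FBS condition, called fibroblast, cells stayed in serum-free medium until day 3 and then received DMEM with 10% fetal bovine serum. In the serum-free condition, called keratocyte, the medium stayed serum-free throughout. The FBS cultures therefore also differ in base medium and in the day of exposure, which cannot be told apart from the serum. The labels do not say that the 8 libraries of a condition came from separate animals or cultures, so p-values measure only the spread between these libraries, which may be technical.

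Small leucine-rich proteoglycans are secreted proteins that bind collagen fibrils and influence their diameter and spacing. In the cornea, where regular fibrils are needed for transparency, several of them carry keratan sulfate, and osteoglycin is among these corneal keratan sulfate proteoglycans. Osteomodulin, or osteoadherin, is a keratan sulfate proteoglycan known from bone, asporin binds collagen and TGF-β, and ECM2 joins leucine-rich repeats to a von Willebrand factor C domain. By sequence, asporin and ECM2 are grouped with class I of the family, osteomodulin with class II and osteoglycin with class III.

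The deposited gene table places all 4 genes on the minus strand of chromosome 1, on a genome build that the sources used here do not name. OGN spans positions 70251553 to 70270135, OMD 70281224 to 70291839, ASPN 70308159 to 70332292 and ECM2 70346738 to 70387748. The gaps between neighbours are 11088 bases from OGN to OMD, 16319 bases from OMD to ASPN and 14445 bases from ASPN to ECM2, and the whole group covers 136196 bases. CENPP, a centromere protein gene on the opposite strand, spans 252197 bases and encloses all 4 genes.

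Counts summed to 15410285 to 20911192 per TGF-β1 library, 15659561 to 22528261 per FBS library and 17151397 to 21540864 per serum-free library. Library names carry the numbers 5 to 12 in each condition. With TGF-β1 and in serum-free medium, libraries 5 to 8 (replicates 1 to 4) stood apart from libraries 9 to 12 (replicates 5 to 8). Values are therefore also given within each set. The squared difference over counting variance, per gene, was 41.1 to 82.8 between the sets and 3.27 to 20.3 within them for TGF-β1 libraries. For serum-free libraries it was 41.1 to 128 between the sets and 7.15 to 30.8 within them. For FBS libraries it was 50.2 to 169 between the sets and 2.83 to 73.8 within them, so these ranges overlapped. FBS replicates 5 and 6 stood apart from the other 6 FBS libraries (46.3 to 169), but not from each other (6.79). The FBS libraries 9 to 12 were therefore not 1 uniform group. As a check of the treatments, ACTA2, the smooth muscle actin gene that marks myofibroblasts, averaged 174 FPKM with TGF-β1, 361 FPKM with FBS and 2.21 FPKM in serum-free medium. KERA (keratocan), a keratocyte marker, averaged 147 FPKM with TGF-β1, 119 FPKM with FBS and 4423 FPKM in serum-free medium. Of the 6 keratocyte markers tested, 1 was higher and 5 lower with TGF-β1 and 6 were lower with FBS, and all 3 myofibroblast markers tested were higher in both, against serum-free. With TGF-β1 against FBS, however, 2 of these 3 were lower, ACTA2 at a log2 fold change of −1.05 (edgeR adjusted p = 0.0127) and TNC at −2.04 (edgeR adjusted p = 6.11e-07), and TAGLN was not called (0.67, edgeR adjusted p = 0.0531). The labelled cell type was checked against markers of other cells of the cornea. The 5 epithelial markers in the table summed to 0 to 0.403 CPM (counts scaled to library size) with TGF-β1, 0 to 0.196 CPM with FBS and 0 to 0.764 CPM in serum-free medium, with KRT12 at 0 in every library. The 5 leukocyte markers summed to 0.219 to 0.807 CPM with TGF-β1, 0.358 to 1.04 CPM with FBS and 1.27 to 2.76 CPM in serum-free medium.

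Levels are given in FPKM, the deposited count scaled to gene length and library size, and differences come from edgeR's quasi-likelihood test on the counts, with Benjamini-Hochberg adjustment across the 13308 genes. A call means an adjusted p under 0.05, and a log2 fold change is positive where the condition named first is higher. In bulk RNA, fewer cells of a type and less RNA per cell cannot be told apart.

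With TGF-β1 the 4 genes divided: ASPN and ECM2 rose and OGN and OMD fell against serum-free medium. Of all genes tested, 31.2% were called higher there and 33.1% lower, 64.3% in all. With FBS all 4 fell against serum-free medium, where 40.5% of all genes tested were called lower, 39.5% higher and 80.0% in all. With TGF-β1 all 4 were higher than with FBS, where 36.9% of all genes tested were called higher, 36.4% lower and 73.3% in all. In each of the 12 comparisons of a gene between conditions, the libraries of the conditions did not overlap. The share of all genes tested whose libraries did not overlap was, with TGF-β1 against serum-free, 17.3% for higher and 16.5% for lower genes. It was 25.7% for lower genes with FBS against serum-free and 22.4% for higher genes with TGF-β1 against FBS. The 3 comparisons share libraries, so their values for a gene are not independent of each other.

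**Figure D1:**
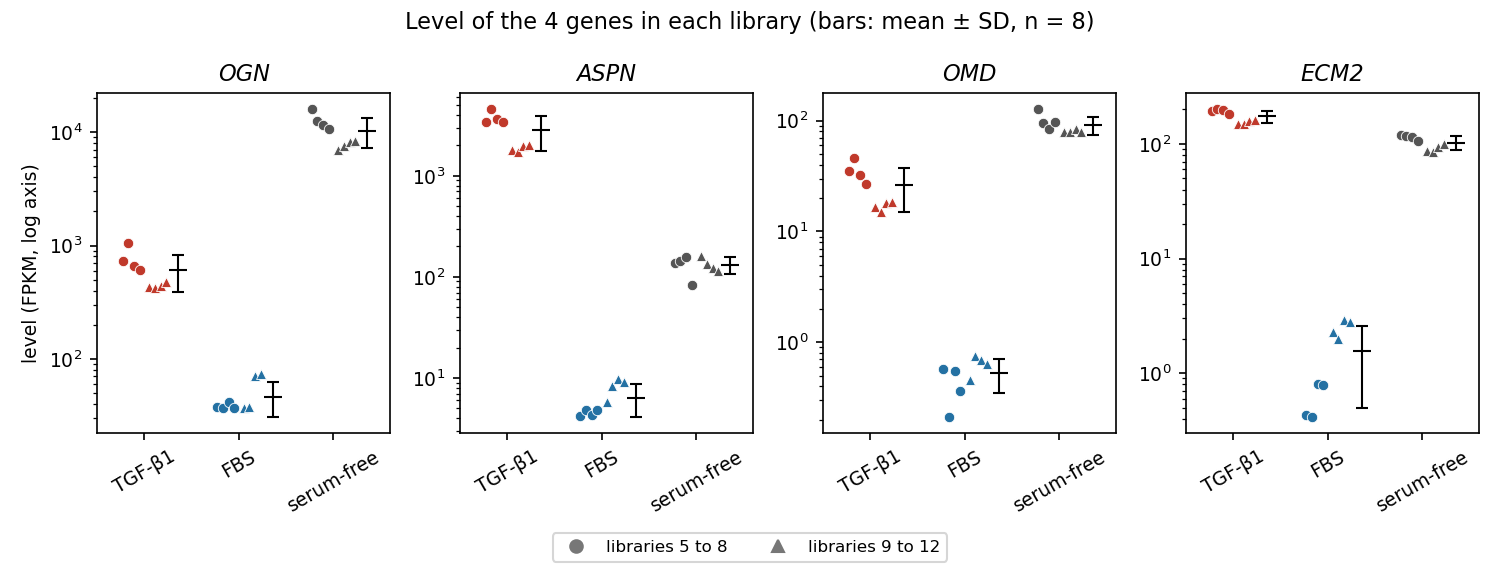
Level of OGN, ASPN, OMD and ECM2 in each library, in FPKM on a log axis, for the TGF-β1, FBS and serum-free conditions. Points are libraries, circles for libraries 5 to 8 and triangles for libraries 9 to 12, and bars give the mean ± SD (n = 8); in every panel the 3 conditions stand clear of each other, and the FBS libraries are lowest.

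OGN was the most abundant of the 4 transcripts in serum-free cells and lost most of its level in both treatments. In TGF-β1 libraries its level was 417 FPKM at the lowest, 540 at the median and 1050 at the highest. In FBS libraries it was 36.8 FPKM at the lowest, 37.6 at the median and 73.3 at the highest. In serum-free libraries it was 6959 FPKM at the lowest, 9599 at the median and 16065 at the highest. The 3 ranges are separate, and within TGF-β1 and serum-free the replicates 1 to 4 were all above the replicates 5 to 8. In the FBS libraries replicates 7 and 8 were high, the upper at 73.3 FPKM, and the other 6 lay close together. By mean FPKM, OGN ranked 96 among the 23428 genes with TGF-β1, 1697 with FBS and 4 in serum-free medium, where its place was between 1 and 8 in single libraries. It took a median of 0.118% of all counts with TGF-β1, 0.0110% with FBS and 2.32% in serum-free medium.

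OGN fell 17.0-fold with TGF-β1 against serum-free (log2 fold change −4.09 ± 0.24 SE, adjusted p = 5.71e-14 in edgeR). With FBS it fell 221-fold against serum-free (−7.79 ± 0.28 SE, edgeR adjusted p = 9.95e-19), the 31st lowest fold change among the 13308 genes tested. OGN was 13-fold higher with TGF-β1 than with FBS (log2 fold change 3.70 ± 0.24 SE, edgeR adjusted p = 1.48e-13). The fall with TGF-β1 was of like size in the sets, −4.04 in libraries 5 to 8 and −4.17 in libraries 9 to 12. The fall with FBS was −8.37 in libraries 5 to 8 and −7.16 in libraries 9 to 12, and the term for this difference was called (1.20 ± 0.25 SE on the log2 scale, edgeR adjusted p = 0.00108). Such a term between the sets was called in 10.3% of all genes tested with TGF-β1 and in 22.4% with FBS, each against serum-free. Without FBS replicates 5 and 6 the log2 fold change of OGN was −7.69 for FBS against serum-free and 3.61 for TGF-β1 against FBS.

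OMD also fell in both treatments, but far less with TGF-β1 than with FBS. Its level was 15.1 FPKM at the lowest, 22.5 at the median and 45.8 at the highest in TGF-β1 libraries. In FBS libraries it was 0.212 FPKM at the lowest, 0.565 at the median and 0.757 at the highest, which rests on 13 to 41 reads per library. In serum-free libraries it was 78.2 FPKM at the lowest, 84.2 at the median and 127 at the highest. The 3 ranges are separate, and serum-free replicate 1 stood above the other 7, which lay between 78.2 and 96.7 FPKM. OMD fell 3.48-fold with TGF-β1 against serum-free (log2 fold change −1.80 ± 0.21 SE, edgeR adjusted p = 2.65e-08). With FBS it fell 170.5-fold against serum-free (−7.41 ± 0.28 SE, edgeR adjusted p = 1.56e-18). It was 49.0-fold higher with TGF-β1 than with FBS (5.62 ± 0.26 SE, edgeR adjusted p = 2.23e-16).

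Within the sets, OMD was −1.51 in libraries 5 to 8 and −2.25 in libraries 9 to 12 for TGF-β1 against serum-free, as log2 fold changes, and this difference was called (−0.74 ± 0.20 SE, edgeR adjusted p = 0.0172). For FBS against serum-free it was −7.87 in libraries 5 to 8 and −6.97 in libraries 9 to 12 (difference 0.90 ± 0.31 SE, edgeR adjusted p = 0.0374). That last call was lost without FBS replicates 5 and 6 (0.95, edgeR adjusted p = 0.0725). Without these FBS libraries the log2 fold change of OMD was −7.48 for FBS against serum-free and 5.69 for TGF-β1 against FBS.

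ASPN went in opposite directions, far up with TGF-β1 and far down with FBS. Its level was 1723 FPKM at the lowest, 2710 at the median and 4583 at the highest in TGF-β1 libraries. In FBS libraries it was 4.25 FPKM at the lowest, 5.29 at the median and 9.74 at the highest. In serum-free libraries it was 82.9 FPKM at the lowest, 136 at the median and 162 at the highest. The ranges are separate, and in TGF-β1 the replicates 1 to 4, at 3401 to 4583 FPKM, were all above the replicates 5 to 8, at 1723 to 2020 FPKM. In serum-free medium the sets overlapped, and replicate 4 was lowest. By mean FPKM, ASPN ranked 13 among the 23428 genes with TGF-β1, 7176 with FBS and 408 in serum-free medium.

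ASPN rose 21.4-fold with TGF-β1 against serum-free (log2 fold change 4.42 ± 0.25 SE, edgeR adjusted p = 1.94e-14). With FBS it fell 20.5-fold against serum-free (−4.36 ± 0.25 SE, edgeR adjusted p = 9.31e-15). Between the treatments the difference was 439-fold in favour of TGF-β1 (8.78 ± 0.30 SE, edgeR adjusted p = 5.52e-19), the 8th highest fold change of the 13308 genes tested. The rise with TGF-β1 was 4.87 in libraries 5 to 8 and 3.8 in libraries 9 to 12, on the log2 scale, and this difference was called (−1.08 ± 0.21 SE, edgeR adjusted p = 0.000969). The fall with FBS was −4.82 in libraries 5 to 8 and −4.01 in libraries 9 to 12, a difference that was also called (0.81 ± 0.23 SE, edgeR adjusted p = 0.0122). Without FBS replicates 5 and 6 the log2 fold change of ASPN was −4.40 for FBS against serum-free and 8.83 for TGF-β1 against FBS.

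ECM2 rose a little with TGF-β1 and fell to a few CPM with FBS. Its level was 148 FPKM at the lowest, 173 at the median and 202 at the highest in TGF-β1 libraries. In FBS libraries it was 0.413 FPKM at the lowest, 1.39 at the median and 2.90 at the highest, from 21 to 155 reads per library. In serum-free libraries it was 84.9 FPKM at the lowest, 103 at the median and 119 at the highest. The 3 ranges are separate, and in the FBS libraries replicates 1 to 4, at 0.413 to 0.806 FPKM, were all below replicates 5 to 8, at 1.98 to 2.90 FPKM. ECM2 rose 1.69-fold with TGF-β1 against serum-free (log2 fold change 0.76 ± 0.25 SE, edgeR adjusted p = 0.0114). When the counts were summed per condition and set, leaving 2 sums per condition, this difference was 0.83 and no longer called (edgeR adjusted p = 0.284). With only the 16 libraries of these conditions in the fit, it was 0.75 ± 0.09 SE (edgeR adjusted p = 5.48e-07). Within the sets it was 0.78 in libraries 5 to 8 and 0.74 in libraries 9 to 12, and the lowest TGF-β1 library stood 1.24-fold above the highest serum-free library in CPM.

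With FBS, ECM2 fell 66.6-fold against serum-free (log2 fold change −6.06 ± 0.32 SE, edgeR adjusted p = 2.42e-15). It was 113-fold higher with TGF-β1 than with FBS (6.82 ± 0.33 SE, edgeR adjusted p = 6.51e-16). The fall with FBS was −7.49 in libraries 5 to 8 and −5.19 in libraries 9 to 12, the largest difference between the sets among the 4 genes (2.30 ± 0.18 SE on the log2 scale, edgeR adjusted p = 7.95e-10). Without FBS replicates 5 and 6 the log2 fold change of ECM2 was −6.25 for FBS against serum-free and 7.02 for TGF-β1 against FBS. For TGF-β1 against serum-free, the terms between the sets were not called for ECM2 (−0.04, edgeR adjusted p = 0.904) or OGN (−0.13, edgeR adjusted p = 0.815).

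**Figure D2:**
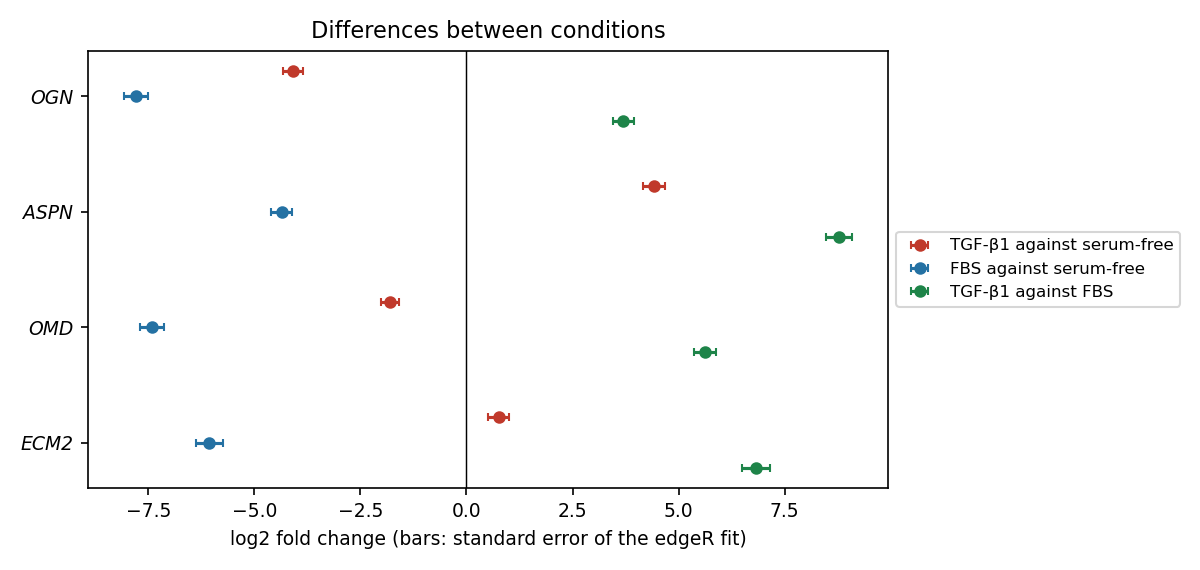
Log2 fold change of OGN, ASPN, OMD and ECM2 in the 3 comparisons of conditions, with the standard error of the edgeR fit as bars. With TGF-β1 against serum-free ASPN (4.42) and ECM2 (0.76) lie right of 0 and OGN (−4.09) and OMD (−1.80) left of it, all 4 lie left of 0 with FBS against serum-free, and all 4 lie right of 0 with TGF-β1 against FBS.

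The order of the 4 levels, per length, changed with the condition. In all 8 TGF-β1 libraries ASPN was highest, followed by OGN, ECM2 and OMD, with means of 2814 ± 1075, 602 ± 217, 174 ± 21.7 and 26 ± 11 FPKM in that order (SD, n = 8). In FBS libraries OGN was highest, followed by ASPN, ECM2 and OMD, with means of 46.3 ± 15.7, 6.41 ± 2.31, 1.55 ± 1.05 and 0.532 ± 0.180 FPKM (SD, n = 8). ECM2 and OMD did not separate there: ECM2 was above OMD in 7 of 8 libraries and their ranges overlapped. In serum-free libraries OGN stood alone at 10275 ± 3085 FPKM (SD, n = 8). There ASPN at 131 ± 25.2, ECM2 at 103 ± 13.4 and OMD at 90.6 ± 16.5 FPKM were close together, each above the next in 7 of 8 libraries with overlapping ranges.

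The sum of the 4 genes was 3616 ± 1314 FPKM with TGF-β1, 54.8 ± 18.6 FPKM with FBS and 10599 ± 3113 FPKM in serum-free medium (SD, n = 8 each). OGN made up 16.8 ± 1.49% of that sum with TGF-β1, 84.6 ± 3.72% with FBS and 96.8 ± 0.711% in serum-free medium. ASPN made up 77.3 ± 2.30% with TGF-β1, 11.8 ± 2.47% with FBS and 1.33 ± 0.475% in serum-free medium. The TGF-β1 library with the most ASPN, replicate 2, also held the most OGN, OMD and ECM2. The FPKM ratio of ASPN to OGN was 4.13 to 5.62 in TGF-β1 libraries, 0.104 to 0.224 in FBS libraries and 0.00771 to 0.0233 in serum-free libraries.

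**Figure D3:**
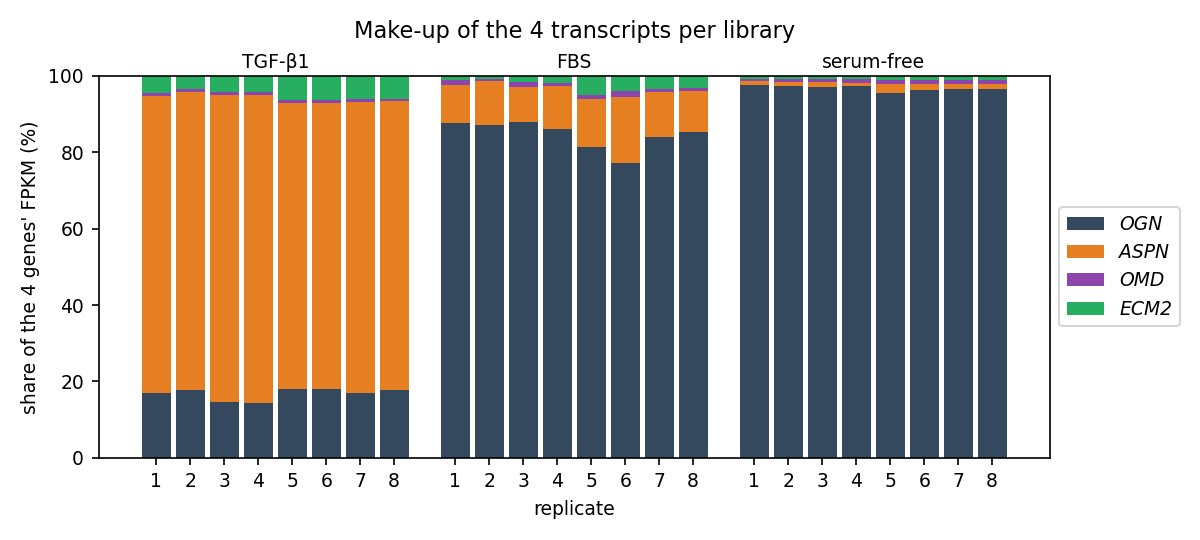
Share of OGN, ASPN, OMD and ECM2 in the summed FPKM of the 4 genes, in percent, for each of the 8 replicates of the TGF-β1, FBS and serum-free conditions. ASPN fills 74.8% to 80.7% of the bar in TGF-β1 libraries, and OGN fills 77.1% to 87.9% in FBS libraries and 95.5% to 97.7% in serum-free libraries.

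The balance within a library does not depend on how libraries are scaled, so the log2 ratio of each count to the OGN count was compared with an exact two-sided permutation test in 9 comparisons, adjusted by Benjamini and Hochberg over the 9. The mean log2 count ratio of ASPN to OGN was 1.55 ± 0.17 with TGF-β1, −3.52 ± 0.34 with FBS and −6.92 ± 0.52 in serum-free medium (SD, n = 8). It was thus higher by 8.47 with TGF-β1 than in serum-free medium, by 3.40 with FBS than in serum-free medium and by 5.07 with TGF-β1 than with FBS. For ECM2 to OGN the mean log2 count ratio was −1.79 ± 0.31 with TGF-β1, −5.26 ± 0.95 with FBS and −6.66 ± 0.24 in serum-free medium. Its differences were 4.87 for TGF-β1 against serum-free, 1.40 for FBS against serum-free and 3.47 for TGF-β1 against FBS. For OMD to OGN it was −4.42 ± 0.15 with TGF-β1, −6.30 ± 0.54 with FBS and −6.64 ± 0.23 in serum-free medium.

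The OMD ratio was higher with TGF-β1 by 2.22 against serum-free and by 1.88 against FBS. Of the 9 comparisons, 7 had no overlap of libraries and the smallest p that 8 against 8 libraries allow (exact permutation p = 0.000155, adjusted 0.0002). ECM2 to OGN with FBS against serum-free was also called, although the ranges overlapped (exact permutation p = 0.00124, adjusted 0.0014). OMD to OGN with FBS against serum-free differed by 0.34 and was not called (exact permutation p = 0.128). It was called without FBS replicate 2 (difference 0.47, exact permutation adjusted p = 0.0159), the library with 13 OMD reads. As a plain ratio of FPKM values the difference was 0.31 and was not called (exact permutation adjusted p = 0.163).

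Most of the surrounding genes on chromosome 1 differed between conditions by smaller amounts than the 4 genes. Within 500 kb of the 4 genes the table names 12 other genes, of which 11 were tested and SUSD3 was too low. Over all genes tested, 64.3% were called with TGF-β1 against serum-free, 80.0% with FBS against serum-free and 73.3% with TGF-β1 against FBS. With TGF-β1 against serum-free, 2 of the 11 were higher, 6 lower and 3 not called, with log2 fold changes from −1.75 to 0.70 and a median of −0.28, beside −0.03 over all genes tested. With FBS against serum-free, 4 were higher, 6 lower and 1 not called, from −1.76 to 0.63 and with a median of −0.54, beside −0.04 over all genes. With TGF-β1 against FBS, 4 were higher, 3 lower and 4 not called, from −1.37 to 1.64 and with a median of −0.13, beside 0.01 over all genes. The widest falls against serum-free were those of WNK2, a kinase gene, with TGF-β1 (−1.75) and of CARD19 with FBS (−1.76). In each comparison the fold changes of OGN, OMD, ASPN and ECM2 lay outside the neighbours' range. With TGF-β1 against serum-free this was by a narrow margin for OMD (−1.80, with WNK2 at −1.75) and ECM2 (0.76, with BICD2 at 0.70). Without regard to sign, ECM2 changed less there than WNK2 and CENPP (−1.21).

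CENPP, which encloses the 4 genes on the other strand, had 34 to 52 reads per TGF-β1 library, 128 to 195 per FBS library and 50 to 201 per serum-free library. Its log2 fold change was −1.21 with TGF-β1 against serum-free (edgeR adjusted p = 3.01e-05), 0.17 with FBS against serum-free (edgeR adjusted p = 0.459) and −1.37 with TGF-β1 against FBS (edgeR adjusted p = 3.18e-06). The sources used here do not say whether the counting used strand. Whether some reads of CENPP entered the counts of the 4 genes, or the reverse, was not tested. OGN had 332183 to 776667 reads per serum-free library, beside the 50 to 201 of CENPP. In FBS libraries the counts of OMD, at 13 to 41, and of ECM2, at 21 to 155, were of the size of the CENPP counts or below it. Those of ASPN, at 136 to 338, overlapped the CENPP counts.

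**Figure D4:**
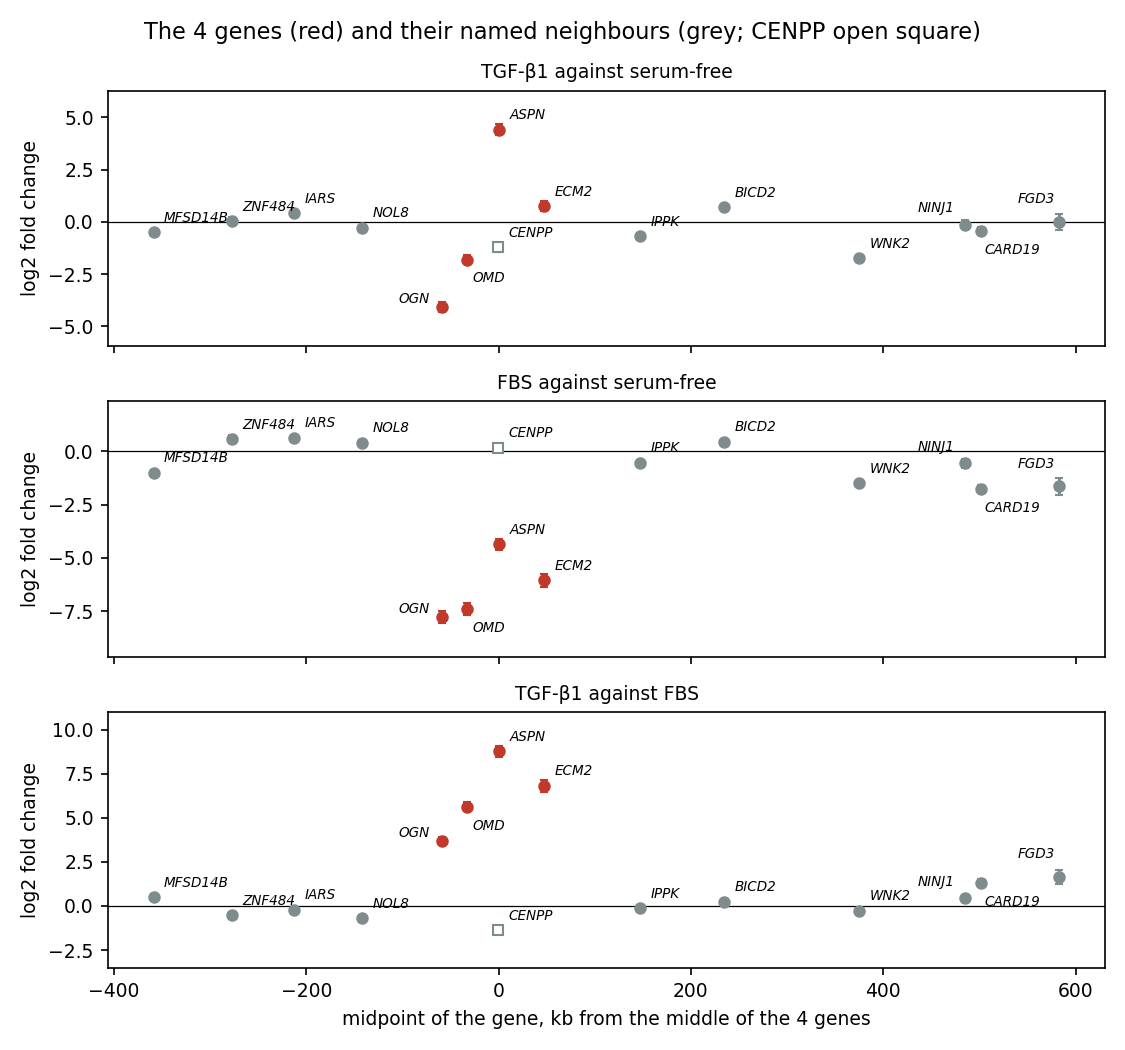
Log2 fold change, with the standard error of the edgeR fit as bars, of the 4 genes and of the 11 tested named genes within 500 kb of them, against the distance in kb of each gene's midpoint from the middle of the 4. The neighbours stay between −1.76 and 1.64 in the 3 comparisons, while OGN, OMD, ASPN and ECM2 reach from −7.79 to 8.78.

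Among the rest of the family, 11 further small leucine-rich proteoglycan genes were tested. With TGF-β1 against serum-free, 5 of the 11 were higher and 6 lower, with a median log2 fold change of −0.26. With FBS against serum-free, 1 was higher, 9 lower and 1 not called, with a median of −3.95. With TGF-β1 against FBS, 8 were higher, 1 lower and 2 not called, with a median of 2.40. The medians and the shares called over all genes tested were those given with the neighbouring genes. Counting the 4 genes in, TGF-β1 was above serum-free for 3 of 4 genes of class I, 2 of 5 of class II, 1 of 3 of class III and 1 of 2 of class IV, and below it for the 1 gene of class V. The 1 gene of class III above serum-free was OPTC.

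DCN (decorin), LUM (lumican), KERA and EPYC (epiphycan) form another neighbouring group of the family, on chromosome 4 of the table. All 4 of them fell with TGF-β1 against serum-free, by log2 fold changes of −1.56 for DCN, −0.96 for LUM, −4.91 for KERA and −3.11 for EPYC. The 4 genes around OGN went both ways in that comparison, and no test of the difference between the groups was run. With FBS against serum-free the values were −3.95 for DCN, −4.0 for LUM, −5.21 for KERA and −3.89 for EPYC, against −4.36 for ASPN, −6.06 for ECM2, −7.41 for OMD and −7.79 for OGN. KERA and EPYC did not pass the threshold between TGF-β1 and FBS, with log2 fold changes of 0.30 (edgeR adjusted p = 0.195) and 0.79 (edgeR adjusted p = 0.0504), where the value of OGN was 3.70.

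Of the others, FMOD (fibromodulin), PRELP and CHAD (chondroadherin) had the directions of ASPN and ECM2. Against serum-free, FMOD was at 2.37 with TGF-β1 and −4.26 with FBS, PRELP at 2.01 with TGF-β1 and −4.90 with FBS, and CHAD at 2.18 with TGF-β1 and −5.53 with FBS. BGN (biglycan) was called higher in both, at 3.97 with TGF-β1 and 1.90 with FBS. PODN (podocan) was called lower in both, at −1.31 with TGF-β1 and −3.08 with FBS. OPTC (opticin) averaged 2.97 FPKM with TGF-β1 and 0.0607 FPKM in serum-free medium, and had 0 counts in all 8 FBS libraries.

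**Figure D5:**
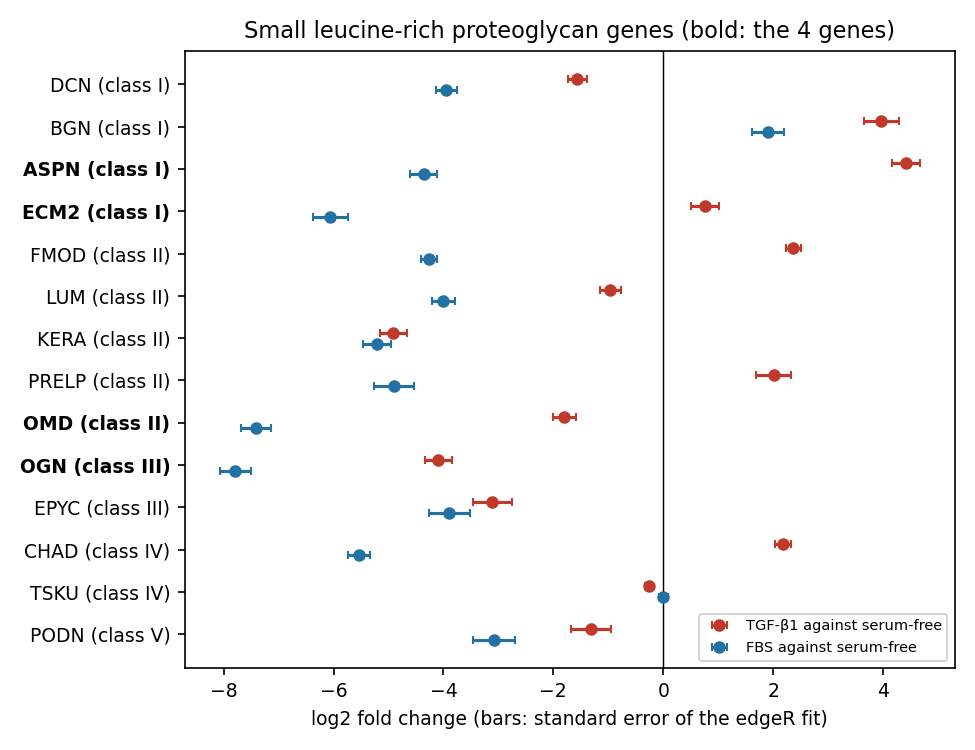
Log2 fold change of the tested small leucine-rich proteoglycan genes with TGF-β1 against serum-free (red) and FBS against serum-free (blue), by class, with the standard error of the edgeR fit as bars and the 4 genes in bold. OPTC, with 0 counts in all FBS libraries, is not drawn; with FBS, OGN (−7.79) and OMD (−7.41) lie farthest left.

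Genes of the pathways that surround these proteins were described from lists by count and median. Over all genes tested, 64.3% were called with TGF-β1 against serum-free, 80.0% with FBS against serum-free and 73.3% with TGF-β1 against FBS. No list was tested against these shares. Of the 8 tested enzymes that build keratan sulfate chains, 2 were higher and 5 lower with TGF-β1 (median log2 fold change −0.23), and 2 were higher and 6 lower with FBS (median −0.56), each against serum-free. The widest changes were in CHST2, a sulfotransferase, at 4.39 with TGF-β1 and 4.46 with FBS, and in B3GNT7, which extends the chain, at −2.52 with TGF-β1 and −6.78 with FBS. CHST1, which sulfates galactose in keratan sulfate, was not called with TGF-β1 (−0.26). Between the treatments 5 were higher with TGF-β1 and 3 not called, with a median of 0.36.

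Of 11 fibril collagen genes and their partners, 3 were higher, 3 lower and 5 not called with TGF-β1 (median 0.19), and 9 were lower and 2 not called with FBS (median −2.63), against serum-free. COL1A1, the chain that makes most of the stromal fibril with COL1A2, was not called with TGF-β1 (0.14), and COL6A2 and COL6A3 of the microfibrillar type VI collagen fell (−2.0 and −1.73). With FBS the widest falls were those of COL1A2 (−4.12) and COL6A2 (−3.73), and COL5A3 was not called (0.36). All 11 were higher with TGF-β1 than with FBS (median 1.75), with COL1A2 at 3.79 and COL1A1 at 3.57.

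Of 10 genes for proteases and enhancers that process procollagen or these proteoglycans, 6 were higher and 3 lower with TGF-β1 (median 0.58), and 8 were lower and 2 not called with FBS (median −1.15), against serum-free. TLL2, a tolloid-like protease, was at −3.81 with TGF-β1 and −5.27 with FBS, and its relative TLL1 was at −4.31 with FBS. MMP14, a membrane collagenase, rose with TGF-β1 (2.50). ADAMTS14 was not called with TGF-β1 (−0.05), nor PCOLCE2 with FBS (−0.02). All 10 were higher with TGF-β1 than with FBS (median 2.11), led by ADAMTS2, a procollagen N-proteinase, at 3.75 and MMP2 at 2.98.

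Since asporin binds TGF-β, the genes of that pathway were also counted. Of 20 ligand, receptor, SMAD and latency genes, 13 were higher and 6 lower with TGF-β1 (median 0.80), and 9 were higher and 9 lower with FBS (median −0.05), against serum-free. LTBP2, which encodes a matrix protein related to the latent TGF-β binding proteins, was at 9.16 with TGF-β1, and PMEPA1, a target and inhibitor of the pathway, at 3.72. With FBS, LTBP4 was lowest (−3.14) and SMAD6, an inhibitory SMAD, highest (3.02). LTBP3 was not called with TGF-β1 (−0.06), nor SMAD2 with FBS (−0.17). Between the treatments 17 were higher with TGF-β1 and 2 lower (median 1.12), with LTBP2 at 10.61, TGFB3 at 4.47 and TGFBR3 not called (0.18).

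Of 14 genes of the bone morphogenetic protein pathway, 9 were higher and 2 lower with TGF-β1 (median 0.79), and 7 were higher and 6 lower with FBS (median 0.37), against serum-free. ID2 and ID3, targets that encode inhibitors of helix-loop-helix factors, were at 4.29 and 4.44 with TGF-β1 and at 7.97 and 5.95 with FBS. SMAD5 was called in neither (−0.18 with TGF-β1 and −0.16 with FBS). Between the treatments 5 were higher and 5 lower (median 0.03), with BMP6 at 4.50 and ID2 at −3.67.

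Because OMD and ASPN are also known from bone and cartilage, matrix genes of those tissues were counted. Of 11 tested, 9 were higher and 2 lower with TGF-β1 (median 2.31), and 2 were higher, 5 lower and 4 not called with FBS (median −0.62), against serum-free. Listed bone genes that had too few reads for the test, named after their values were seen, were BGLAP, DMP1 and SP7. BGLAP and DMP1 had 0 counts in every library. SP7 averaged 0.00494 FPKM with TGF-β1, 0.00687 FPKM with FBS and 0.00866 FPKM in serum-free medium. The 2 that fell with TGF-β1, named after their values were seen, were ALPL (alkaline phosphatase, at a log2 fold change of −3.5 and with 0 counts in 4 TGF-β1 libraries) and RUNX2, a bone transcription factor (−1.21). ALPL was low throughout, at 0.0210 FPKM with TGF-β1, 0.279 FPKM with FBS and 0.259 FPKM in serum-free medium. SPP1 (osteopontin) was at 8.05 with TGF-β1, and IBSP (bone sialoprotein) averaged 8.39 FPKM with TGF-β1 and had 0 counts in all serum-free libraries. IBSP, counted among the 9 higher, passed the filter on low counts through its TGF-β1 libraries. Its call there follows in part from how it entered the test. With FBS the widest falls were those of COL2A1 (−4.74) and COL11A1 (−3.69), and RUNX2 was not called (0.05). Between the treatments 9 were higher with TGF-β1 and 2 lower (median 3.61).

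Some markers of other cells also differed between the conditions. The summed level of the 5 vascular endothelial markers was 52.1 to 113 CPM with TGF-β1, 13.8 to 19.0 CPM with FBS and 246 to 368 CPM in serum-free medium, most of it KDR, with 3 of 3 tested markers lower in both treatments. KDR averaged 15.6 FPKM with TGF-β1, 2.88 FPKM with FBS and 64.9 FPKM in serum-free medium, and CDH5 averaged 1.64 FPKM with TGF-β1, 0.519 FPKM with FBS and 3.54 FPKM in serum-free medium. VWF averaged 0.0314 FPKM with TGF-β1, 0.00551 FPKM with FBS and 0.108 FPKM in serum-free medium. TEK and PECAM1 had too few reads for the test. TEK averaged 0.0170 FPKM with TGF-β1, 0.00215 FPKM with FBS and 0.0494 FPKM in serum-free medium, and PECAM1 averaged 0.0837 FPKM with TGF-β1, 0.201 FPKM with FBS and 0.0193 FPKM in serum-free medium. The mean was thus highest in serum-free medium for 4 of the 5 and with FBS for PECAM1. The 5 glial and melanocyte markers summed to 2.41 to 9.16 CPM with TGF-β1, 3.25 to 4.95 CPM with FBS and 14.9 to 27 CPM in serum-free medium. Of the 4 tested, 3 were lower and 1 not called with TGF-β1, and 4 were lower with FBS. The 4 corneal endothelial markers summed to 2320 to 3137 CPM with TGF-β1, 268 to 379 CPM with FBS and 877 to 1225 CPM in serum-free medium, with 2 higher and 2 lower with TGF-β1 and 1 higher, 2 lower and 1 not called with FBS. Most of that sum was COL8A2, which averaged 599 FPKM with TGF-β1, 67.9 FPKM with FBS and 233 FPKM in serum-free medium. ATP1B1 averaged 29.7 FPKM with TGF-β1, 9.23 FPKM with FBS and 11.7 FPKM in serum-free medium. TMEM56 averaged 0.498 FPKM with TGF-β1, 0.576 FPKM with FBS and 1.99 FPKM in serum-free medium, and SLC4A11 averaged 0.222 FPKM with TGF-β1, 1.86 FPKM with FBS and 0.403 FPKM in serum-free medium. The part of these cells in the levels of the 4 genes was not tested.

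For each of the 4 genes, the genes with the most similar profile were found by the root mean square difference of log2 CPM over the 24 libraries, after each gene's mean was removed, among 9764 genes with at least 5 CPM in 1 condition. All libraries share their condition, so these distances describe the pattern over 3 conditions more than over 24 independent samples. Closest to OGN were GALNT5 (0.58), APCDD1 (0.61), LYPD1 (0.63), PITPNM3 (0.66) and OLFML1 (0.71). Closest to OMD were C1QTNF3 (0.39), ADAMTS17 (0.50), MME (0.55), FBP2 (0.56) and THBS4 (0.68). All 10 had a lower mean with TGF-β1 than in serum-free medium and a lower one still with FBS, with APCDD1, which encodes a Wnt inhibitor, at 16.9 FPKM with TGF-β1, 0.529 FPKM with FBS and 164 FPKM in serum-free medium.

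Closest to ASPN were CHAD (0.99), FNDC1 (1.03), CILP (1.03), FMOD (1.07) and TMEM229B (1.07), of which CHAD and FMOD belong to the same family. FNDC1 stood at 545 FPKM with TGF-β1, 6.21 FPKM with FBS and 77.3 FPKM in serum-free medium. Closest to ECM2 were COLGALT2 (0.53), PRELP (0.85), CDH20 (0.89), MFAP4 (0.93) and GRM8 (0.95). These did not all share its direction with TGF-β1 against serum-free. By log2 fold change COLGALT2 (0.91), PRELP (2.01) and CDH20 (1.63) were higher there, as ECM2 was, and MFAP4 (−0.92) and GRM8 (−0.83) were lower. COLGALT2, a collagen galactosyltransferase gene, stood at 64.7 FPKM with TGF-β1, 0.558 FPKM with FBS and 34.4 FPKM in serum-free medium. Among the 4 genes themselves, OGN and OMD were nearest to each other (1.0), then OMD and ECM2 (1.21) and ASPN and ECM2 (1.55), and OGN and ASPN were farthest apart (3.5). OMD was the 22nd closest gene to OGN, and ASPN the 6531st.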

How the data were processed

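RNA of 24 libraries was analysed, 8 per condition. Per the file headers, the deposited count table gives raw whole-number counts for each gene in each library. In the deposited FPKM table the authors scaled these counts to the gene's length and to a library size, which was 0.99 to 1.02 of the effective size computed here. For the aligner, counter, build, annotation and strand setting, no name is given in the sources used here.

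Counts were fitted in R 4.3.3 with edgeR 4.0.16 (filterByExpr by condition, TMM library sizes, glmQLFit and glmQLFTest, 1 coefficient per condition over all 24 libraries). Fold sizes come from that fit. Its standard errors, in the text and figures, were derived as the absolute log2 fold change divided by the square root of the test's F statistic. The steps were tested on simulated data. Ratios of counts used a pseudocount of 0.5 and exact permutation over libraries in scipy 1.17.1. Alternatives used DESeq2 1.42.0, limma 3.58.1 on log2(FPKM + 0.1) or log2(FPKM + 1), other library sizes and filters, the sets of library numbers, and leaving out each library; counts summed per condition and set, the FPKM ratio with no pseudocount, and some settings of the terms between sets, were chosen after seeing the data.

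The 4 genes and the 18 gene lists (131 genes) were chosen with earlier results of these data known. Named genes are the 4, the named neighbours within 500 kb by range, family members called at least 2-fold or at 100 FPKM, up to 2 called and 1 uncalled member per list, and the 5 closest profiles per gene. The cell type markers given singly were chosen after their values were seen. PODNL1, CHST5, COMP, PTGDS, CNN1 and KRT14 are not analysed here, and CHST6, LTBP3 and LTBP4 were found by gene number in a RefSeq table (mOryCun1.1), used for names alone.

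Same-numbered libraries of different conditions had residuals that correlated at 0.103 to 0.332 (TGF-β1 and FBS), 0.177 to 0.362 (TGF-β1 and serum-free) and 0.115 to 0.429 (FBS and serum-free), and the replicate number was also used as a block. Within each set of library numbers these correlations were −0.0285 to 0.167, −0.109 to 0.139 and −0.00435 to 0.23 for the same 3 pairs of conditions, in that order. The closest libraries within a condition differed by 2.83 times the counting variance per gene, so none was counted as a duplicate.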

Additional observations from a re-analysis of the deposited data

Results flagged for a closer look

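Serum-free replicate 1 had 347 CPM of OMD, and its gap to the other serum-free libraries was large for the range of the group. It was 1 of 12 groups examined (4 genes in 3 conditions), and chance marks about 1 in 20 groups.

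The size of the treatment effect differed between libraries 9 to 12 and libraries 5 to 8 in 6 of 8 tests, by the term for set and treatment in edgeR, given as libraries 9 to 12 minus libraries 5 to 8 on the log2 scale. This term was called for 10.3% of all genes tested with TGF-β1 and for 22.4% with FBS, against serum-free. For TGF-β1 against serum-free the difference was −1.08 for ASPN and −0.74 for OMD. For FBS against serum-free it was 1.20 for OGN, 0.81 for ASPN, 0.90 for OMD and 2.30 for ECM2. The OMD term with FBS was not called in either alternative run, without FBS replicates 5 and 6 (edgeR adjusted p = 0.0725) or with total library sizes (edgeR adjusted p = 0.0593). In each of these 6 the direction of the effect was the same in both sets.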

How the results depend on the processing

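Of 456 values of the 4 genes under alternatives, 455 kept their direction and side of the threshold, as did 214 of 216 values of the ratios to OGN and 14 of 16 of the terms between sets, and 0 reversed. The 456 include runs without a library of the condition not compared. Such a library enters only through the shared filter, scaling and spread, so these runs could hardly differ. With counts summed per condition and set, 3613 genes were called with TGF-β1 against serum-free (8563 over single libraries) and 5931 with TGF-β1 against FBS (9757 over single libraries). ECM2 with TGF-β1 against serum-free lost its call (0.83, edgeR adjusted p = 0.284), with 2 sums per condition in place of 8 libraries. The term between sets of OMD for FBS against serum-free lost its call without FBS replicates 5 and 6 (0.95) and with total library sizes (0.78). OMD per OGN with FBS against serum-free gained one as a ratio of FPKM values with a pseudocount of 0.1 added to both genes (0.59). That addition is larger in proportion for OMD with FBS, at 0.532 FPKM, and with no pseudocount, a setting chosen after seeing the data, the difference was 0.31 and was not called. Leaving out single libraries gave 0.22 to 0.47. The cause was not tested for the terms between sets or for the libraries left out. Total library sizes in place of TMM moved the median log2 fold change of all genes to −0.17 with TGF-β1 against serum-free, 0.21 with FBS against serum-free and −0.39 with TGF-β1 against FBS. The genes called with TGF-β1 against serum-free were then 3215 higher and 5368 lower, against 4155 higher and 4408 lower with TMM. With FBS against serum-free they were 6219 higher and 4450 lower, against 5257 higher and 5386 lower. With TGF-β1 against FBS they were 3131 higher and 6819 lower, against 4917 higher and 4840 lower. No direction of the 4 genes changed under these sizes. With the replicate block, the number of genes called was 9385 with TGF-β1 against serum-free, 11104 with FBS against serum-free and 10311 with TGF-β1 against FBS, and no call of the 4 genes or of the ratios changed; ECM2 with TGF-β1 stood at 0.76 (edgeR adjusted p = 0.0117). A library correlated best with its own number in 6 of 16 cases for TGF-β1 and FBS, 6 of 16 for TGF-β1 with serum-free and 7 of 16 for FBS with serum-free. With FBS, OMD rests on 13 to 41 reads per library, which limits the precision of its fold changes. On log2(FPKM + 1) the OMD difference was −5.89 for FBS against serum-free, beside −7.41 in the main fit. For TGF-β1 against FBS it was 4.05, beside 5.62. The 1 added there exceeds the mean level of OMD with FBS.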
